A study of Homo sapiens with 15 samples.

Results

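Integrins and the proteins that couple them to actin were followed through a long exposure of BEAS-2B cells, an immortal human cell line derived from bronchial epithelium, to polyethylene terephthalate nanoplastics (PET-NPLs). The group was defined by a list of gene symbols: 38 genes, of 28395 in the count table. Of these, 22 encode integrin subunits (15 alpha and 7 beta) and 16 encode proteins of the focal adhesion. This list, and those of ligands and other adhesion genes below, were chosen with earlier results of these data known. The shares of these lists that passed a test therefore only describe them. Exposed cells received PET-NPLs at 50 µg/mL for 24 h, 15 weeks or 30 weeks, and unexposed cells were kept in parallel and passaged alike. RNA was sequenced from 2 control and 2 exposed samples at 24 h, 2 and 2 at 15 weeks, and 3 controls and 4 exposed samples at 30 weeks. All were the same cell line in the same serum-containing medium. By their labels, batch 1 held all samples of the earlier times and batch 2 those of 30 weeks, so every comparison of exposed with control cells lies within a batch. Replicates are numbered samples, and nothing in the sources used here says that they came from separate exposures, so that p-values measure the spread between these samples, which may be technical.

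Integrins are receptors made of an alpha and a beta chain that span the plasma membrane and hold cells to the extracellular matrix. The alpha chain largely sets the ligand: some pairs bind collagens, others laminins of the basement membrane, others the RGD motif of fibronectin, vitronectin and latent TGF-beta, and a further group binds ligands on other cells, such as VCAM1 and E-cadherin. Inside the cell, talin and kindlins bind the beta tail and switch the receptor on, the ILK, PINCH and parvin complex and the actin linkers join it to the cytoskeleton, and focal adhesion kinase (PTK2) with its scaffolds passes signals on. ITGB4 differs from the other beta chains in that it joins keratin filaments at hemidesmosomes, together with plectin.

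Total counts on genes ran from 23143202 to 31459990 per sample, and the 38 genes took 0.4253% to 1.001% of them. Levels below are CPM, counts relative to the library total after TMM scaling, and 36 of the 38 genes had enough counts for the test, an edgeR quasi-likelihood fit with Benjamini-Hochberg adjustment over 16740 genes and a threshold of 0.05 on the adjusted p. At the earlier times the 6 most abundant small noncoding RNAs took 9.748% to 12.916% of the counts. They took 22.301% to 31.029% in the 30-week controls and 17.041% to 21.457% in exposed cells at 30 weeks. Exposed replicate 2 at 30 weeks stood apart from the other exposed samples (lowest correlation of log values 0.9761), and it held the lowest level of its group in 13 of the 16 focal adhesion genes, while control replicate 2 did so in 10 of 16. Against the labelled cell type, the epithelial markers EPCAM and CDH1 were at most 0.935 CPM in every sample, and KRT5, KRT14 and TP63 were at 3 counts or fewer in all 30-week samples. The simple-epithelial keratins KRT8 (127 to 710 CPM) and KRT18 (179 to 383 CPM) were present throughout, as were the mesenchymal markers VIM (1030 to 1880 CPM) and CDH2 (75.4 to 194 CPM). KRT7 was high at 24 h alone (1220 to 1410 CPM, against 1.25 to 23.4 CPM later).

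At 30 weeks, 12 of the 36 tested genes differed between exposed and control cells (33.3%), beside 23.7% of all genes tested. Of these, 6 were higher in exposed cells (12.0% of all genes were called higher) and 6 lower (11.7% of all genes). The higher genes were the collagen receptor chain ITGA2, the RGD receptor chains ITGB3 and ITGB8, the kindlin FERMT2, the parvin PARVA and the zyxin relative LPP. The lower genes were the laminin receptor chains ITGA6 and ITGA7, the hemidesmosomal chain ITGB4 that pairs with ITGA6, and ITGA4, ITGAE and ITGA10. Integrin subunits made up 9 of the 12 (9 of 20 tested), and focal adhesion proteins the other 3 (3 of 16). The median log2 fold change over the 36 genes was 0.02, beside 0.008 over all genes. Their median absolute value was 0.36, and that over all genes is not given here. In bulk RNA, fewer cells of a kind and less RNA per cell cannot be told apart, which holds for every level given here.

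**Figure D1:**
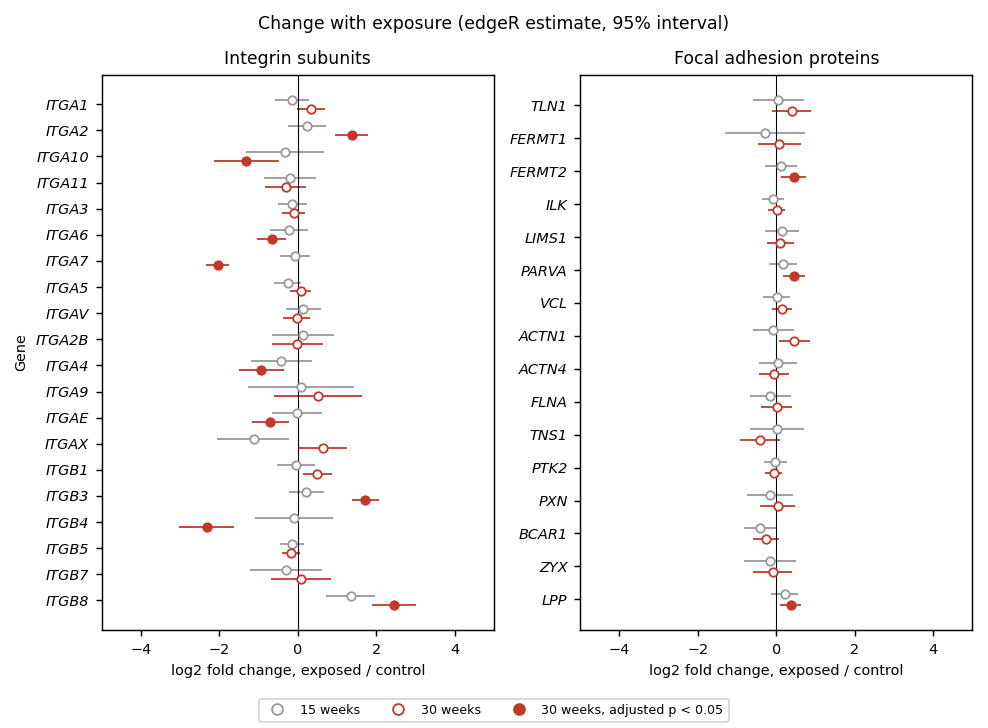
Log2 fold change of exposed over control cells (horizontal axis, edgeR estimate) for each tested gene (vertical axis) at 15 weeks (grey) and 30 weeks (red), with bars for 95% intervals and filled symbols for an adjusted p under 0.05. At 30 weeks ITGB8 lies farthest to the right at 2.45 and ITGB4 farthest to the left at -2.32, while the focal adhesion proteins on the right-hand panel stay between -0.42 and 0.46.

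Among the alpha chains of collagen receptors, ITGA2 (chr5:52989352-53094779 in GRCh38, plus strand) was higher in exposed cells than in controls. It stood at 3.18, 4.12 and 3.29 CPM in the 30-week controls and at 8.95, 13.1, 8.0 and 6.80 CPM in the exposed samples. Every exposed sample lay above every control, the highest being exposed replicate 2. The log2 fold change was 1.38 (standard error 0.201, edgeR adjusted p = 0.000111), or 2.60-fold higher, and it passed the test in all 17 alternative settings. ITGA10, a collagen receptor chain at under 1 CPM on average, was lower by 1.31 on the log2 scale (edgeR adjusted p = 0.0241), with 0.817 to 0.903 CPM in controls and 0.141 to 0.591 CPM in exposed cells. That call was lost without control replicate 1 (edgeR adjusted p = 0.0580), control replicate 2 (0.0594), control replicate 3 (0.050) or exposed replicate 4 (0.0651). ITGA1 (0.34, edgeR adjusted p = 0.156) and ITGA11 (-0.30, edgeR adjusted p = 0.416) did not pass, and their samples overlapped.

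Of the 3 laminin receptor alpha chains, ITGA6 and ITGA7 were lower in exposed cells than in controls, and ITGA3 did not pass the test. ITGA7 (chr12:55684568-55716400, minus strand), best known as the laminin receptor of muscle, was at 131, 101 and 147 CPM in the 30-week controls and at 33.3, 29.6, 31.5 and 27.9 CPM in exposed cells. The 2 groups were far apart, and the 4 exposed samples lay close together. The fitted log2 difference was -2.04 (standard error 0.133, edgeR adjusted p = 1.84e-08), or 4.12-fold lower. A list of 14 skeletal muscle markers moved with it: their summed level was 408 to 524 CPM in the 30-week controls, 32.3 to 43.7 CPM in exposed cells and 16.5 to 42.0 CPM in the earlier samples. Of the 9 markers tested, 8 were lower in exposed cells, among them MYOD1, the master regulator of myogenic fate (65.8 to 106 CPM against 0.313 to 0.761 CPM). MYH3 did not pass (log2 fold change 0.14, edgeR adjusted p = 0.612), and ACTA1 was at most 0.246 CPM at 30 weeks. MYF5, MYF6, MYH8 and CKM were at 3 counts or fewer in all 30-week samples. A list of 5 smooth muscle markers went the other way, with a summed level of 177 to 209 CPM in the 30-week controls and 283 to 391 CPM in exposed cells. Of these, TAGLN passed (log2 fold change 0.93, edgeR adjusted p = 0.000164), and ACTA2, MYH11, CNN1 and SMTN did not. The part of these muscle marker differences in the ITGA7 difference was not tested.

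ITGA6, the laminin receptor chain of basal epithelium, was at 134, 159 and 121 CPM in the 30-week controls and at 86.1, 122, 72.7 and 66.7 CPM in exposed cells. Exposed replicate 2 reached the lowest control, and the other 3 exposed samples lay below all controls. ITGA6 had a log2 fold change of -0.66 (standard error 0.173, edgeR adjusted p = 0.0113), and without control replicate 2 it was -0.55 (edgeR adjusted p = 0.0554). ITGA3, which pairs with ITGB1 as the other main epithelial laminin receptor, was the most abundant alpha chain at 43.9 CPM per kb of exon in controls and 40.6 in exposed cells. Its log2 fold change of -0.11 had a 95% interval of -0.40 to 0.17.

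None of the 3 tested RGD-binding alpha chains passed the test. ITGAV, the shared partner of several beta chains, had a log2 fold change of -0.031 (95% interval -0.38 to 0.31), ITGA5, the fibronectin receptor chain, one of 0.068 (-0.19 to 0.33), and ITGA2B, the platelet chain at 0.572 to 2.53 CPM, one of -0.016 (-0.67 to 0.64). ITGA8 had 2 counts or fewer in every sample and was not tested.

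Of the chains that bind ligands on other cells or serve leukocytes, ITGA4 and ITGAE were lower in exposed cells. ITGA4, the VCAM1 and fibronectin receptor chain, was at 20.7, 25.3 and 19.1 CPM in the 30-week controls and at 10.2, 20.7, 6.85 and 7.75 CPM in exposed cells. It was lower by 0.93 on the log2 scale (standard error 0.274, edgeR adjusted p = 0.0214). Exposed replicate 2 lay within the control range and the other 3 below it. ITGAE, the E-cadherin receptor chain, was at 53.1, 50.4 and 30.2 CPM against 21.1, 39.8, 30.1 and 18.7 CPM. It was lower by 0.70 on the log2 scale (standard error 0.224, edgeR adjusted p = 0.0331), with overlapping groups. Single libraries decided both calls. For ITGA4 the edgeR adjusted p was 0.0524 to 0.0792 without control replicate 1 or 2 or exposed replicate 1, 3 or 4, and for ITGAE it was 0.0897 to 0.180 without control replicate 1 or 2 or exposed replicate 1 or 4. ITGAX was at 1.16 to 1.98 CPM in controls and 2.01 to 2.61 CPM in exposed cells, without overlap, yet its edgeR adjusted p was 0.115, and ITGA9 stayed at or under 0.682 CPM in every sample. Of the leukocyte markers, LAPTM5 was lower in exposed cells along with them, at 2.28, 1.77 and 1.90 CPM against 0.543, 0.666, 0.452 and 0.387 CPM (log2 fold change -1.94, edgeR adjusted p = 0.000153), while CORO1A stood at 2.58 to 3.35 CPM and 2.79 to 3.49 CPM. CD3E and ITGB2 were at 3 counts or fewer in each of the 30-week samples, PTPRC was at most 0.174 CPM, and ITGAM had a log2 fold change of -1.16 (edgeR adjusted p = 0.166). The part of the LAPTM5 difference in those of ITGA4 and ITGAE was not tested. Of the exon sequence of ITGA4, 26.4% overlaps CERKL on the other strand, and the counting strand is not given in the sources used here.

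The largest changes were among the beta chains, where 3 of 6 tested genes passed, beside 23.7% of all genes. ITGB8 (chr7:20329766-20415754, plus strand), which pairs with ITGAV and binds latent TGF-beta, was at 2.84, 3.39 and 2.72 CPM in the 30-week controls and at 15.8, 12.7, 14.6 and 22.1 CPM in exposed cells. No sample of either group came near the other group. The log2 fold change was 2.45 (standard error 0.260, edgeR adjusted p = 4.12e-06), or 5.46-fold higher. ITGB3 (chr17:47253827-47313743, plus strand), which forms the vitronectin receptor with ITGAV and the platelet fibrinogen receptor with ITGA2B, was at 6.97, 5.67 and 8.37 CPM against 28.0, 18.8, 21.6 and 24.2 CPM. The groups were again apart, and the log2 difference was 1.72 (standard error 0.162, edgeR adjusted p = 1.02e-06), or 3.30-fold higher. Of 4 platelet markers, PF4, PPBP and GP9 were at 3 counts or fewer in all samples, and GP1BA was at 0.217 to 1.07 CPM in the 30-week controls and 0.491 to 1.06 CPM in exposed cells. The endothelial markers summed to 0.473 to 0.794 CPM in the 30-week controls and 1.73 to 2.90 CPM in exposed cells. They did not move together. VWF (0.215 to 0.650 CPM against 0.986 to 2.25 CPM) and CDH5 (0 CPM against 0.105 to 0.739 CPM) were higher in exposed cells. PECAM1 was at 0.0716 to 0.258 CPM in controls and at most 0.0701 CPM in exposed cells, and TEK was at 3 counts or fewer in both. The part of these small differences in the ITGB3 change was not tested. In the annotation used here, 33.2% of the exon sequence of ITGB3 is shared with another gene model on its own strand.

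ITGB4 (chr17:75721459-75757818, plus strand) moved the other way. It was at 67.3, 32.1 and 84.7 CPM in the 30-week controls and at 14.8, 5.47, 10.3 and 18.5 CPM in exposed cells. The lowest control was control replicate 2 and the lowest exposed sample exposed replicate 2, and the groups did not overlap. ITGB4 thus had a log2 fold change of -2.32 (standard error 0.332, edgeR adjusted p = 9.30e-05), or 5.00-fold lower. The summed level of 9 epithelial markers was 314 to 411 CPM in the 30-week controls and 880 to 1100 CPM in exposed cells, nearly all of it KRT8 and KRT18. KRT8, KRT18 and KRT19 were higher in exposed cells (log2 fold changes 2.04, 0.80 and 1.93), KRT7 (0.007), CDH1 (-0.12) and EPCAM (-0.23) did not pass, and KRT5, KRT14 and TP63 were at 3 counts or fewer. The part of these markers in the ITGB4 difference was not tested. Of its 4 hemidesmosome partners, none passed the test. Plectin (PLEC), which ties ITGB4 to keratin filaments, came closest: 786, 318 and 858 CPM in controls against 488, 240, 316 and 437 CPM in exposed cells, with a log2 difference of -0.82 and an edgeR adjusted p of 0.0545. It passed without control replicate 2 (edgeR adjusted p = 0.00481) or exposed replicate 1 (0.0366) and under DESeq2 (0.0297), and in both arms its lowest sample was replicate 2, as for ITGB4. The tetraspanin CD151 (-0.14), the plakin DST (0.011) and COL17A1 (-0.38) had edgeR adjusted p-values of 0.389 to 0.977.

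ITGB1, the common partner of most alpha chains and the most abundant beta chain, was at 304, 445 and 406 CPM in the 30-week controls and at 498, 757, 438 and 484 CPM in exposed cells. Its log2 fold change of 0.50 (standard error 0.178) had an edgeR adjusted p of 0.0525, and it passed without control replicate 2 (0.0434) or exposed replicate 3 (0.0341) and under DESeq2 (0.0309). ITGB5, the vitronectin receptor chain, had a log2 fold change of -0.17 (95% interval -0.40 to 0.060), and ITGB7, at 0.631 to 2.05 CPM and sharing 42.3% of its exon sequence with ZNF740 on the other strand, one of 0.082. ITGB6 had 6 counts or fewer in every sample and was not tested.

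**Figure D2:**
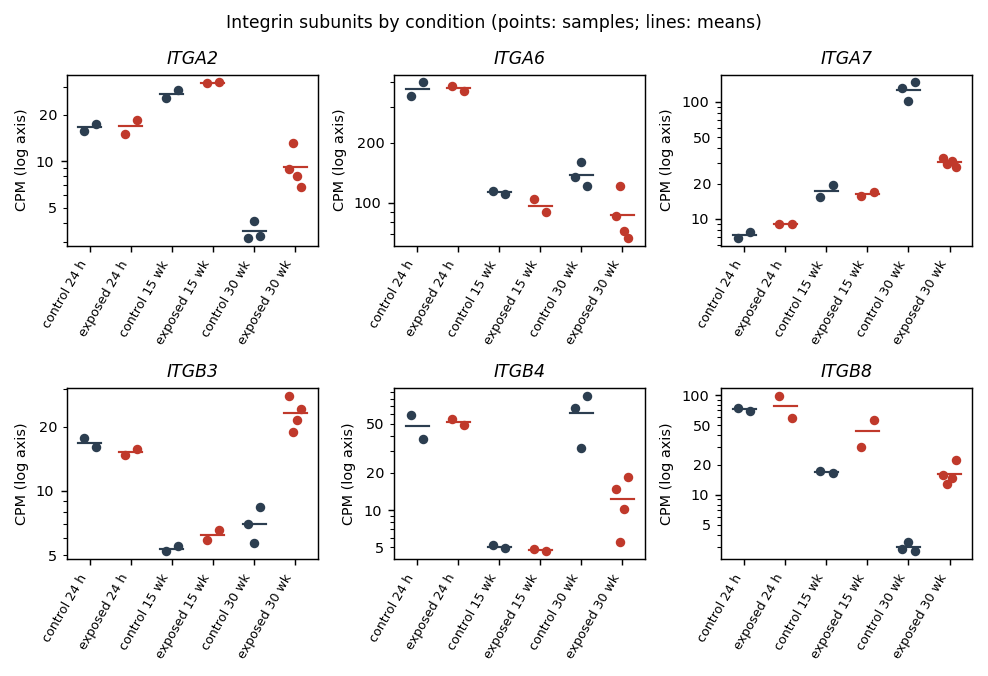
Levels of 6 integrin subunits in every sample (vertical log axis, CPM), with the 6 conditions along the horizontal axis, controls in dark blue, exposed cells in red, a point per sample and a line at each group mean. At 30 weeks the exposed points lie above the controls for ITGA2, ITGB3 and ITGB8, below them for ITGA7 and ITGB4, and overlap them for ITGA6, whose highest exposed sample was at 122 CPM.

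Of the 36 tested genes, 8 had 30-week groups that did not overlap (22.2%), beside 27.3% of all genes tested: ITGA2, ITGA7, ITGA10, ITGAX, ITGB3, ITGB4, ITGB8 and LPP. Of the 12 genes called, 5 passed the test as reported and in every alternative that refitted the data (ITGA2, ITGA7, ITGB3, ITGB4 and ITGB8). The other 7 each lost the call when a single library was left out. The count of 12 became 6 without control replicate 1, where the calls over all genes went from 3961 to 2491. It became 7 without exposed replicate 1, with 3038 calls over all genes.

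Since an integrin works as a pair, the changes were also read by heterodimer. Of 20 known pairs, 18 had both chains tested, and in 1 of these both chains passed with the same direction: ITGA6 with ITGB4, the hemidesmosomal laminin receptor, both lower. The ITGA6 groups overlapped, and its call was lost without control replicate 2 (edgeR adjusted p = 0.0554). In 7 pairs the alpha chain alone passed (ITGA2, ITGA4, ITGA6, ITGA7 and ITGA10 with ITGB1, and ITGA4 and ITGAE with ITGB7), and in 3 the beta chain alone (ITGAV with ITGB3, ITGAV with ITGB8, and ITGA2B with ITGB3). Neither chain passed in the other 7, which include the fibronectin receptor ITGA5 with ITGB1 and the laminin receptor ITGA3 with ITGB1. Per kb of exon, ITGA6 stood at 20.6 CPM and ITGB4 at 9.08 CPM in the 30-week controls, and at 13.0 and 1.82 CPM in exposed cells. ITGAV stood at 8.34 and 8.16 CPM per kb, with ITGB3 at 1.03 and 3.39 and ITGB8 at 0.197 and 1.08 in the same 2 groups.

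Within a sample, the shares of the subunits do not depend on the scaling between samples. Of the summed CPM per kb of the 15 alpha chains, laminin-binding chains took 62.1%, 60.7% and 65.5% in the 30-week controls and 56.5%, 54.2%, 55.0% and 58.1% in exposed cells. RGD-binding chains took 29.0%, 29.3% and 27.6% in controls and 36.9%, 35.6%, 36.7% and 35.9% in exposed cells, and collagen-binding chains 1.38% ± 0.182 (SD, n = 3) and 2.25% ± 0.107 (SD, n = 4). Within the laminin class the mean share of ITGA7 was 11.1% in controls and 3.32% in exposed cells and that of ITGA6 16.6% and 12.7%, while that of ITGA3 was 35% and 39.9%. Shares sum to a fixed total, and ITGA5, at 21.7% and 28.1%, had a log2 fold change of 0.068 in its level. In each of the 3 classes the groups did not overlap, and each gave an exact two-sided permutation p of 0.0571 (0.0762 adjusted over the 4 classes), the smallest that 3 against 4 samples allow. The share of the ITGA4, ITGA9 and leukocyte class was 7.24% ± 1.69 (SD, n = 3) against 5.51% ± 1.83 (SD, n = 4), with overlapping groups (exact permutation p = 0.286).

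Among the beta chains that pair with ITGAV other than ITGB1, ITGB5 prevailed in every sample, and at 30 weeks its share was lower in every exposed sample than in any control. It took 91.5%, 91.3% and 90.2% of their summed CPM per kb in controls and 70.3%, 74.8%, 73.6% and 67.1% in exposed cells. ITGB3 took 7.41% ± 0.979 (SD, n = 3) in controls and 21.6% ± 2.16 (SD, n = 4) in exposed cells, and ITGB8 took 1.45% ± 0.303 (SD, n = 3) and 6.92% ± 1.81 (SD, n = 4). The 3 shares did not overlap between the groups, each with an exact permutation p of 0.0571, again the smallest possible. ITGB6 took at most 0.25% in any sample, from 6 counts or fewer. Its share did not overlap between the groups either, with the same exact permutation p of 0.0571.

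Of the 16 focal adhesion proteins, 3 passed the test at 30 weeks (18.8%, beside 23.7% of all genes), all of them higher in exposed cells. FERMT2, the kindlin that activates integrins together with talin, was at 44.2, 54.0 and 41.1 CPM in the 30-week controls and at 58.1, 83.5, 57.3 and 53.2 CPM in exposed cells. Exposed replicate 2 was highest, and the lowest exposed sample lay below the highest control. Its log2 fold change was 0.44 (standard error 0.15, edgeR adjusted p = 0.0430), and 0.28 without exposed replicate 2 (edgeR adjusted p = 0.0620). The call was also lost without control replicate 1 (0.137), control replicate 3 (0.138) or exposed replicate 1 (0.0518). FERMT1, the epithelial kindlin, had a log2 fold change of 0.081 (edgeR adjusted p = 0.859), and talin (TLN1) one of 0.39 (edgeR adjusted p = 0.257), or 0.58 without exposed replicate 2 (edgeR adjusted p = 0.0110).

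PARVA, the parvin that binds ILK and actin, was at 74.7, 84.8 and 94.5 CPM in controls and at 133, 92.1, 116 and 122 CPM in exposed cells. Exposed replicate 2 fell inside the control range. PARVA was higher by 0.45 on the log2 scale (standard error 0.127, edgeR adjusted p = 0.0178), and it did not pass without control replicate 1 (0.0879) or exposed replicate 1 (0.0581). ILK had a log2 fold change of 0.014 (95% interval -0.20 to 0.23), with 78.5% of its exon sequence overlapped by genes on the other strand, and the PINCH gene LIMS1, which has near-identical copies in the genome, one of 0.097 (-0.24 to 0.44).

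LPP, a zyxin relative at adhesions, was at 82.5, 103 and 107 CPM in controls and at 138, 110, 122 and 134 CPM in exposed cells, without overlap. Its log2 fold change of 0.37 (standard error 0.126, edgeR adjusted p = 0.0430) was lost when 1 library was left out, namely control replicate 1 (edgeR adjusted p = 0.192) or 2 (0.0570), or exposed replicate 1 (0.110), 3 (0.0648) or 4 (0.0921). ZYX itself was at -0.095 (edgeR adjusted p = 0.817). None of the 5 actin linkers passed: ACTN1 had a log2 fold change of 0.46 (edgeR adjusted p = 0.0908, and 0.00299 without exposed replicate 2), and VCL, ACTN4, FLNA and TNS1 ranged from -0.42 to 0.15. Without control replicate 3, ACTN1 had an edgeR adjusted p of 0.0477. The kinase PTK2 was at -0.064 (95% interval -0.28 to 0.15), and its scaffolds PXN at 0.031 and BCAR1 at -0.27 (edgeR adjusted p = 0.234, and 0.0296 without control replicate 2).

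The ligands of these receptors and other adhesion genes were read from lists of 95 genes, 86 of them tested, of which 30 passed at 30 weeks (34.9%, beside 23.7% of all genes), 20 higher and 10 lower (12.0% and 11.7% of all genes). Laminin genes passed in 5 of 10 cases, all higher, whereas the laminin receptor chains that passed were lower. LAMA3, the alpha chain of epithelial laminin, was at 10.4, 18.5 and 20.6 CPM in controls and at 48.5, 31.0, 46.5 and 46.6 CPM in exposed cells (log2 fold change 1.38, edgeR adjusted p = 0.000106), and LAMA1 changed by 1.11 (edgeR adjusted p = 0.00101). RGD ligands passed in 5 of 10 cases, 3 higher and 2 lower. The matrix protein TNC was at 68.2, 57.9 and 84.0 CPM in controls and at 330, 195, 244 and 283 CPM in exposed cells (log2 fold change 1.91, edgeR adjusted p = 1.51e-06), fibronectin (FN1) changed by 2.25, and fibrillin (FBN1, -0.89) and the latent TGF-beta binding protein LTBP1 (-1.06) were lower.

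Collagens passed in 4 of 9 cases and did not move together. COL1A1 was lower (log2 fold change -2.91, edgeR adjusted p = 3.02e-05), while COL1A2, whose product joins COL1A1 in type I collagen, was higher (3.28, edgeR adjusted p = 0.000956) from 0, 0.650 and 0.286 CPM in controls to 4.02, 5.01, 1.74 and 2.04 CPM. COL4A2 of the basement membrane was higher by 0.45 (edgeR adjusted p = 0.0456). That call was lost in 10 of 17 alternatives, with adjusted p-values of up to 0.194. VCAM1, the counter-receptor of ITGA4, was at 15.0, 20.1 and 18.4 CPM in controls and at 3 counts or fewer in each exposed sample, at least 164-fold lower against a floor of 3 counts per library. Most of the tested skeletal muscle markers given beside ITGA7 were lower in the same samples, and their part in the VCAM1 difference was not tested. ADAM15, a metalloprotease that integrins can bind, was higher by 0.58 (edgeR adjusted p = 0.00130). Of 48 other focal adhesion genes tested, 14 passed (29.2%, a share near the 23.7% of all genes), 8 higher and 6 lower. KANK1, which tethers talin at the adhesion rim (1.68), and the zyxin-binding TES (1.07) were the largest increases, and the BCAR1 relative NEDD9 (-1.77) and the vinculin-binding SORBS2 (-1.61) the largest decreases, among those averaging at least 1 CPM.

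At 24 h, 0 of the 36 genes passed, as did 0% of all genes tested by edgeR, and 0 of the 36 had an unadjusted p under 0.05 (277 of all genes did). DESeq2 and limma-voom also called 0 of them. The log2 fold changes of the 36 genes ran from -0.37 for ITGA11 to 0.31 for ITGA7. At 15 weeks edgeR again called 0 of the 36 genes (0% of all genes tested), and 2 had an unadjusted p under 0.05, as did 823 of the 16740 genes. ITGB8 was at 17.5 and 16.7 CPM in the 15-week controls and at 30.3 and 56.8 CPM in exposed cells. Both exposed samples were above both controls, the 2 of them wide apart, and the log2 fold change was 1.35 (standard error 0.293, edgeR adjusted p = 0.414). Under DESeq2 its adjusted p was 0.0296, and over the alternatives it ran from 0.00105 to 1.00. ITGAX had a log2 fold change of -1.13 from 1.04 and 0.914 CPM to 0.558 and 0.325 CPM (edgeR adjusted p = 0.912).

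The change at 30 weeks was then set against that at 15 weeks by a test of their difference. Of the 36 genes, 4 passed (11.1%), beside 4.74% of all genes, 2 of them higher (2.66% of all genes) and 2 lower (2.08%). ITGA7 differed by -1.97 (standard error 0.222, edgeR adjusted p = 5.29e-05) and ITGB3 by 1.5 (standard error 0.262, edgeR adjusted p = 0.00246), both in every alternative. ITGA2 differed by 1.13 (edgeR adjusted p = 0.0431) and ITGB4 by -2.23 (edgeR adjusted p = 0.0367). These 2 calls were lost in 10 of 21 alternatives each, among them the omission of any single 15-week library, with adjusted p-values of up to 0.175 and 0.149. They were also lost without control replicate 1 (0.101 and 0.0871) or control replicate 3 (0.0804 and 0.0735) at 30 weeks, ITGA2 without exposed replicate 1 (0.0592) and ITGB4 without exposed replicate 3 (0.0676). ITGB8 differed by 1.10 (edgeR adjusted p = 0.141). The count of 4 became 2 without control replicate 3 at 30 weeks, where the calls over all genes went from 794 to 761. It became 7 without exposed replicate 2 at 30 weeks, with 1519 calls over all genes. The 2 times lie in different batches, so any unequal action of the batch on the arms cannot be told apart from time.

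Comparisons between times gave longer lists than comparisons of exposed with control cells. From 24 h to 15 weeks in controls, both in batch 1, 19 of 36 genes passed (52.8%, beside 24.9% of all genes), 5 higher (12.7% of all genes) and 14 lower (12.2%). In exposed cells over the same interval 22 passed (61.1%, beside 26.0%), 6 higher (13.5%) and 16 lower (12.5%). These 2 comparisons share no samples, and 18 genes passed in both with the same direction, 94.7% of the control list and 81.8% of the exposed list. The matching overlap over all genes was not computed, so these shares are not set apart from those of other genes. ITGB4 was at 58.8 and 37.9 CPM in the 24 h controls and at 5.21 and 4.93 CPM in the 15-week controls, and at 54.6 and 48.9 CPM in exposed cells at 24 h and 4.84 and 4.64 CPM at 15 weeks. It fell in both arms, by 3.25 and 3.45 on the log2 scale. FERMT1 fell by 4.12 in controls and 4.41 in exposed cells, from 5.57 to 7.39 CPM at 24 h to 0.260 to 0.474 CPM. ITGA6 fell from 342 and 400 CPM to 115 and 111 CPM in controls, and FERMT2 from 278 and 319 CPM to 120 and 125 CPM. ITGA4 was higher by 3.55 in controls and 3.26 in exposed cells, from 0.80 to 1.01 CPM to 8.05 to 11.8 CPM.

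The interval between 15 and 30 weeks crosses the batches, so that time and batch cannot be told apart. Over it 19 of 36 genes passed in controls (52.8%, beside 50.3% of all genes), 10 higher (25.6%) and 9 lower (24.6%). In exposed cells 21 passed (58.3%, beside 46.0%), 13 higher (23.3%) and 8 lower (22.7%). The share in controls was close to that of all genes. Of the control list, 16 genes (84.2%) were also on the exposed list (76.2% of it), all with the same direction. Here too the overlap over all genes was not computed. ITGB1 was lower at 30 weeks by 1.68 in controls and 1.13 in exposed cells on the log2 scale. ITGA2 fell by 2.94 in controls and by 1.80 in exposed cells, so that the higher level in exposed cells at 30 weeks was still below the 25.5 to 32.3 CPM of the 15-week samples. ITGB8 fell by 2.51 in controls and by 1.42 in exposed cells, after 58.2 to 98.6 CPM at 24 h and 16.7 to 56.8 CPM at 15 weeks. ITGB3, at 14.8 to 17.7 CPM at 24 h and 5.21 to 6.59 CPM at 15 weeks, was higher by 1.89 in exposed cells at 30 weeks than at 15 weeks and did not pass in controls.

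ITGB4 and ITGA7 were higher at 30 than at 15 weeks in both arms. ITGB4 rose by 3.60 in log2 units in controls, to 32.1 to 84.7 CPM, and by 1.37 in exposed cells, to 5.47 to 18.5 CPM. ITGA7 rose by 2.87 in controls and by 0.89 in exposed cells, after 6.86 to 9.10 CPM at 24 h and 15.3 to 19.3 CPM at 15 weeks. In both genes the exposed samples at 30 weeks were below their passage-matched controls but above every 15-week sample.

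**Figure D3:**
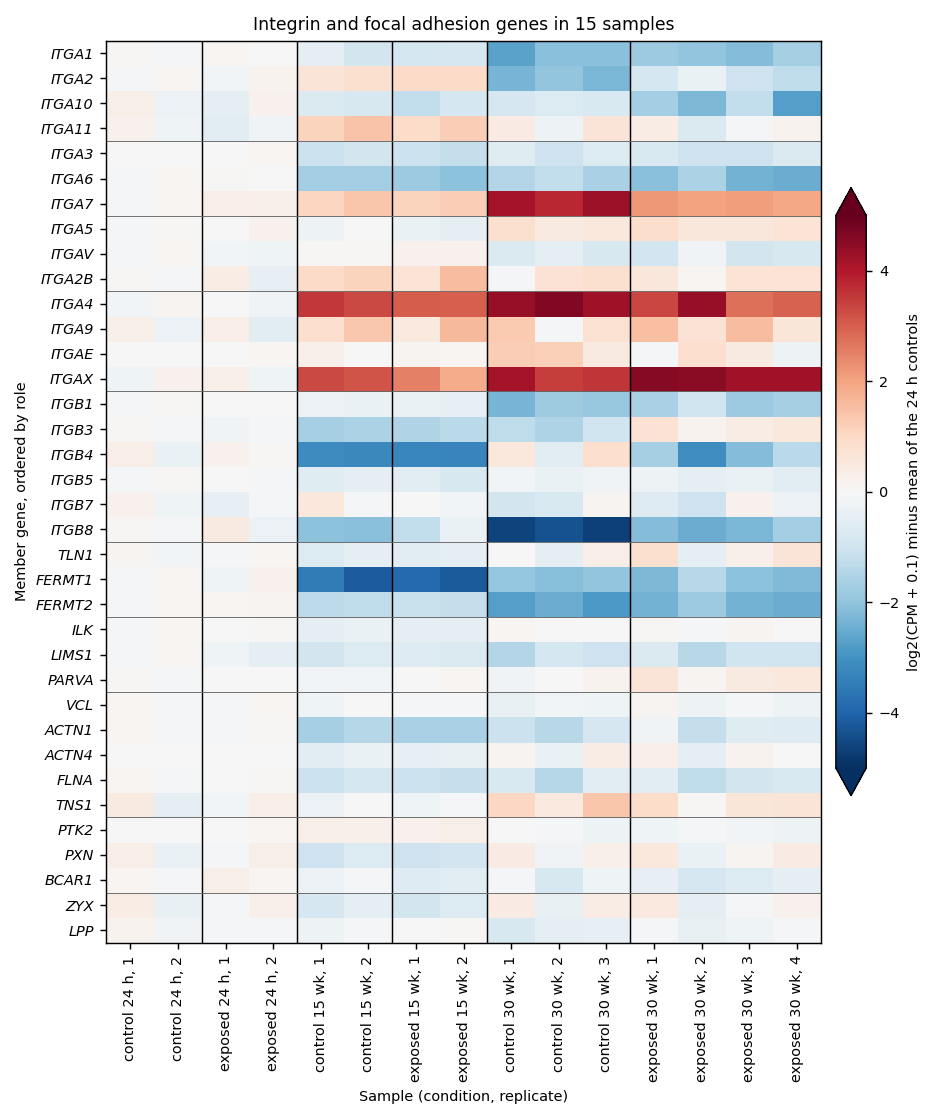
Log2(CPM + 0.1) of each tested gene (rows, ordered by role) in each of the 15 samples (columns) minus the mean of the 24 h controls, from blue (lower) to red (higher), with colours saturated at 5 units. The 15-week columns show the fall of FERMT1 and ITGB4 in both arms, and the 30-week columns show ITGA7 at its highest in the 3 controls (101 to 147 CPM) and ITGB8 at its lowest in the same 3 samples (2.72 to 3.39 CPM).

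The RefSeq promoter table (GRCh38.p14) held 29 of the 38 genes, 8 of them called at 30 weeks. Promoter sequence is shown for ITGA2 and ITGB8, the 2 higher integrin genes with an entry, and for ITGA6, which was lower and was the only one of the 8 to hold any of the motifs searched. The 250 bases before the first RefSeq start listed for each gene are given 5′ to 3′ on the gene's strand, with matches to 3 motifs in capitals. The window of ITGA2 lies at chr5:52989102-52989351 (plus strand), that of ITGB8 at chr7:20330650-20330899 (plus strand) and that of ITGA6 at chr2:172427086-172427335 (plus strand). The windows of ITGB8 and LPP lie inside the spans of these genes, and that of ITGA4 partly does. For these genes the bases before the outermost start were not all searched.
ITGA2: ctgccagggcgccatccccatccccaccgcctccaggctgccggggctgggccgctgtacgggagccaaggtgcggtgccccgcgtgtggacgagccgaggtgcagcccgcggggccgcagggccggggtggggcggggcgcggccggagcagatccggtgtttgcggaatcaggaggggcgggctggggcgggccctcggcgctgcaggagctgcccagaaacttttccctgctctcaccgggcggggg
ITGB8: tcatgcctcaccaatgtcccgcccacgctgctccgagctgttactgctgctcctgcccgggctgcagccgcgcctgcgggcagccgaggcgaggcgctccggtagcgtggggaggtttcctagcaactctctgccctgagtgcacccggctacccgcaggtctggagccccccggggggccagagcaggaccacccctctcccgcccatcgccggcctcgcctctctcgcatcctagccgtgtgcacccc
ITGA6: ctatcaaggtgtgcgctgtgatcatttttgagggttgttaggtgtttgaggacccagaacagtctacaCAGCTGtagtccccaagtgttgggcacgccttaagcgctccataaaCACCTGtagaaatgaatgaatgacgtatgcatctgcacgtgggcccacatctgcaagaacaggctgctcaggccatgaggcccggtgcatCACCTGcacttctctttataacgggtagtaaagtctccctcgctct
The motifs, chosen after the values were seen, were the E-box CAGCTG, the E-box CACCTG, which reads CAGGTG on the other strand, and the AP-1 site TGACTCA, which reads TGAGTCA there, all searched on both strands. The ITGA6 window held CAGCTG 182 bases and CACCTG 136 and 46 bases before the start, and the ITGA2 and ITGB8 windows held none of them, nor did those of ITGA4, ITGA10, ITGAE, FERMT2 and LPP. These matches are common: of 27305 promoters of this length, 13.8% held CAGCTG, 17.5% CACCTG and 4.16% the AP-1 site, and among the 29 genes here they were in 5, 5 and 1. The windows of ITGA2 and ITGB8 were rich in G and C (76.4% with 26 CpG, and 71.2% with 21 CpG), and that of ITGA6 less so (50.8% with 8 CpG).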

How the data were processed

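Total RNA of 15 BEAS-2B samples was sequenced after ribosomal RNA depletion with a stranded kit. The deposited table holds raw counts per gene, which the authors made by filtering reads with Rfastp, mapping them to GRCh38 and counting with Rsubread (the submitters' processing notes name bcl2fastq and featureCounts). The strand setting and the treatment of multi-mapping reads are not given in the sources used here. Groups came from the sample labels. Genes were filtered with filterByExpr, scaled by TMM and fitted over all 15 samples with 1 mean per condition in edgeR 4.0.16 (R 4.3.3, quasi-likelihood F test, Benjamini-Hochberg adjustment over 16740 genes), a method tested on simulated data. CPM were divided by GENCODE exon length wherever genes were compared. A floor of 3 counts per library was used where a group held no more in any sample, and it covers counting error only. Shares were compared by exact two-sided permutation tests over samples. All tested members are reported, and companion genes were named by the largest changes per list among those called with a mean of at least 1 CPM. Alternatives were DESeq2 1.42.0, limma-voom (limma 3.58.1) without and with surrogate variables (sva 3.50.0), the compared groups alone, other filters and scalings, a stricter threshold of 0.01, a replicate block, and leaving out each library. The members and lists were chosen with earlier results of these data known.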

Additional observations from a re-analysis of the deposited data

Results flagged for a closer look

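In the exposed group at 30 weeks, the only group of 4 or more samples and so the only one examined with Dixon's test, 4 of 44 tested series held a sample far from the other 3, and chance alone gives about 1 in 20. The kindlins FERMT1 and FERMT2 both stood out in replicate 2, at 2.42 CPM against 1.27 to 1.46 CPM and at 83.5 CPM against 53.2 to 58.1 CPM. The share of ITGB8 among the beta partners of ITGAV stood out in replicate 4, at 9.63% against 5.88% to 6.16%. The share of ITGB6 was 0.0723% in replicate 1 and 0 in the other 3, which rests on a few counts.

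The difference between exposed and control cells was not the same at 30 weeks as at 15 weeks for 4 integrin subunits, by an edgeR test of the change itself. The log2 fold change moved by 1.13 for ITGA2, by -1.97 for ITGA7, by 1.5 for ITGB3 and by -2.23 for ITGB4. At 15 weeks none of the 4 passed the edgeR test between the arms, and the 2 times lie in different batches.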

How the results depend on the processing

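Of 220 recomputed counts and share differences, 203 stayed within 1.5 times the reported count or within the spread between replicates. At 15 weeks, where 0 members passed, 1 passed under DESeq2 (of 18 genes in all), 1 without the filter (of 10) and 2 with the compared groups alone (of 304, with 4 companion genes against 0). At 30 weeks, 12 members became 5 with the compared groups alone (all genes from 3961 of 16740 to 2370 of 15519). They became 5 at an adjusted p under 0.01, and 6 to 13 when 1 library was left out (all genes 2491 to 5704). For the change between 15 and 30 weeks, 4 became 11 with surrogate variables (all genes from 794 to 2245) and 2 with the compared groups alone (611 of 16416). The count was 2 at the stricter threshold, and 2 to 7 when 1 library of 30 weeks was left out (all genes 622 to 1519). Counts over all genes at the stricter threshold are not given here. The 19 members of the controls between 15 and 30 weeks became 12 to 22 when 1 library was left out. The cause of these shifts was not tested.

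Small log2 fold changes at 30 weeks changed sign, none of them called as reported. With surrogate variables ITGA11 was at 0.020, ITGA3 at 0.060, FERMT1 at -0.048, ACTN4 at 0.18, ZYX at 0.27, DST at -0.32 and CD151 at 0.013. With upper-quartile scaling ILK was at -0.015, FLNA at -0.018 and DST at -0.026, and DST was at -0.002 with the compared groups alone and with at least 10 counts in every sample. When 1 library was left out, the ranges were -0.004 to 0.18 for ITGA5, -0.24 to 0.073 for ITGAV, -0.23 to 0.15 for ITGA2B, -0.21 to 0.53 for ITGB7, -0.18 to 0.18 for FERMT1, -0.024 to 0.054 for ILK, -0.043 to 0.23 for LIMS1, -0.23 to 0.12 for ACTN4, -0.20 to 0.20 for FLNA, -0.12 to 0.18 for PXN, -0.31 to 0.047 for ZYX, -0.18 to 0.13 for DST and -0.25 to 0.034 for CD151.

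For samples with the same number in both arms, the correlations of their deviations from the group means were -0.06 at 24 h, 0.029 at 15 weeks and -0.118, 0.303 and 0.098 for replicates 1, 2 and 3 at 30 weeks. Replicate 2 at 30 weeks deviated together, but not every pair was over 0.1, so the numbers were not taken as pairs. With a replicate block, 0 members passed at 24 h and at 15 weeks, as did 0 of all genes. At 30 weeks 8 passed (3190 of all 16740 genes), and for the change 4 (670 of all genes). Between 24 h and 15 weeks 18 and 21 passed in controls and exposed cells (3936 and 4130 of all genes). Between 15 and 30 weeks 17 and 17 passed (7866 and 6470 of all genes). Of the companion genes, 27 passed at 30 weeks and 0 at 15 weeks. In that fit FLNA was at -0.001 and PXN at -0.046.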
